A study of Mus musculus with 8 samples.

Results

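The transcript levels described here are those of the 4 control libraries, out of 8 libraries in the series. All of them were made from the lateral ganglionic eminence (LGE) of mouse embryos at E18.5, a late embryonic stage shortly before birth. The LGE is a swelling of the ventral forebrain wall that gives rise to the projection neurons of the striatum and to interneurons of the olfactory bulb. The control embryos carried the genotype Isl1 flx/flx, meaning that both alleles of the LIM-homeodomain factor Isl1 were floxed and no Cre recombinase was present. They came from crosses of Dlx1-cre; Isl1flx/+ with Isl1 flx/flx animals, and each embryo was genotyped from its tail. The remaining 4 libraries are conditional knockouts, which enter no value below except a check of how the deposited values were made. The floxed alleles limit the group as a model of wild-type tissue, and embryos without them were not analysed here. The labels give neither sex nor litter, and they do not say whether replicates share a dam, so SDs measure the spread between these 4 libraries.

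By E18.5 the LGE holds dividing cells along the ventricle, newborn neurons leaving them, and maturing projection neurons in the forming striatum. Striatal projection neurons fall into a striatonigral kind, known for the dopamine receptor gene Drd1 and the peptide gene Tac1, and a striatopallidal kind, known for Drd2, the adenosine receptor gene Adora2a and the peptide gene Penk. Levels are in RPKM, reads scaled to the length of the transcript and to the total of the library, as deposited by the authors. A mean is over the 4 control libraries, with its SD, and nothing here was tested, because the description has no contrast.

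All 15705 listed genes were used. Of these, 12441 (79.2%) had a mean of at least 1 RPKM, 6957 (44.3%) of at least 10 RPKM and 560 (3.57%) of at least 100 RPKM. Only 1 listed gene was at 0 in all 4 control libraries, and of 61 neuropeptide genes sought beside the opioids and tachykinins 32 were listed. Shares and class sizes here are therefore of listed genes, and may overstate detection in whole gene families. The median gene stood at 7.85 RPKM. Read depth cannot be given, because the columns named as raw hold rescaled values that sum to 23732455 to 24419880 per library. Across the 12441 genes, Pearson's r of log2(RPKM + 0.1) between pairs of libraries lay between 0.9865 and 0.9962. These are correlations across genes, which are not independent replicates. The deposited values carry the trace of a factor removed across all libraries, and 76.2% of its squared weight lies on the controls, with the largest weight on replicate 4. The SDs given here are therefore too small to an unknown degree.

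The most abundant transcripts were those of the cytoskeleton, translation and radial glia. Tuba1a, an alpha-tubulin of growing neurons, was highest at 2992 ± 158 RPKM (SD, n = 4), followed by the elongation factor gene Eef1a1 at 2684 ± 88.2 RPKM. Tmsb4x, an actin-binding thymosin, stood at 1919 ± 99.8 RPKM, and the beta-tubulin gene Tubb2b at 1735 ± 64.8 RPKM. Nnat, an imprinted gene of developing neurons, had 1183, 1677, 1659 and 1400 RPKM in replicates 1 to 4, and its CV of 15.9% was the widest among the 10 highest genes. Actb stood at 1451 RPKM, the radial glial fatty-acid-binding protein gene Fabp7 at 1388 RPKM and Tubb5 at 1355 RPKM. The other members of the 20 highest were Rps27rt, Tpt1, Rplp1, Rps14, Tubb3, Cfl1, Eef2, Rps26, Ptms, Rps12, Tmsb10 and Hsp90ab1, from 1235 down to 908.8 RPKM. The 10 highest genes held 4.85% ± 0.17 (SD, n = 4) of the summed RPKM of a library, and the 100 highest held 19.9% ± 0.65. Of those 100, 50 encode ribosomal proteins (some of them near-identical copies whose reads could be split) and 5 encode tubulins.

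Levels differed by class of protein. The 465 transcription factor genes had a median of 5.04 RPKM (SD of the 4 library medians 0.093), with 329 of them (70.8%) at 1 RPKM or more and 10 at 100 RPKM or more. The 203 channel genes had a median of 2.84 RPKM (SD 0.047), with 139 (68.5%) at 1 RPKM or more. The 360 receptor genes had a median of 2.01 RPKM (SD 0.10), with 225 (62.5%) at 1 RPKM or more and none at 100 RPKM. The 120 peptide, granin and growth factor genes had a median of 1.22 RPKM (SD 0.12), with 68 (56.7%) at 1 RPKM or more and 3 at 100 RPKM or more. Each class lay below the median of all genes, and the share at 1 RPKM or more was below the 79.2% of all genes in each. The order of the 3 lower classes depends on the low members. Among members with at least 1 RPKM, the medians were 8.84 for transcription factors, 6.91 for receptors, 6.01 for peptides and 5.91 for channels.

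**Figure D1:**
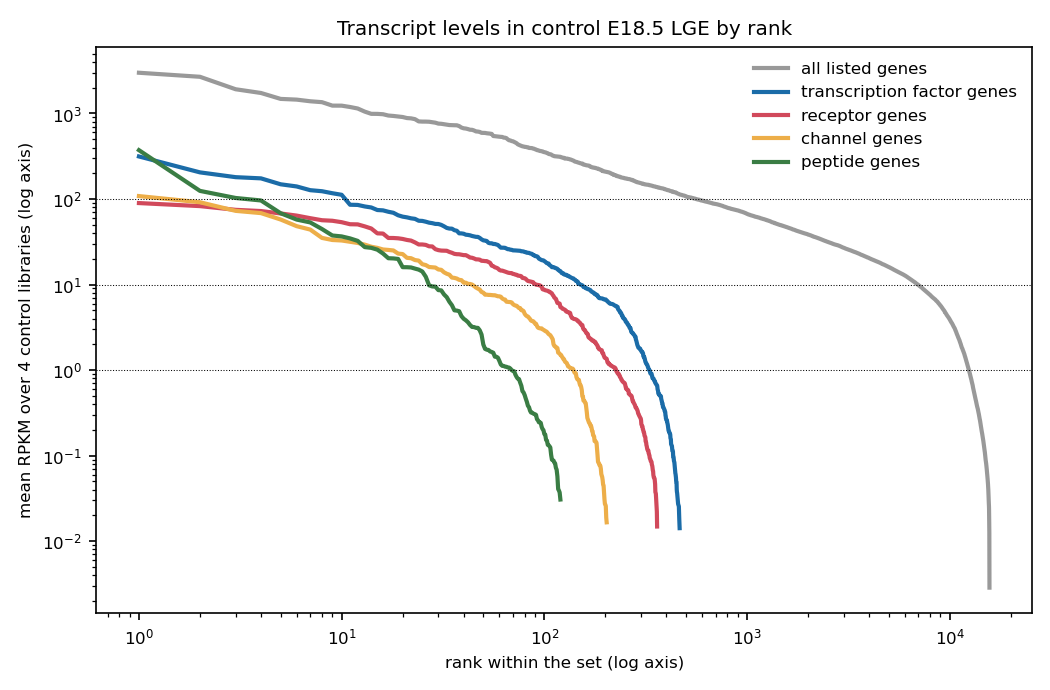
Mean RPKM over the 4 control libraries (log axis) against rank (log axis) for all listed genes and for the 4 classes. Dotted lines mark 1, 10 and 100 RPKM, and the peptide curve starts highest of the 4 classes, at 372 RPKM for Cpe, and ends at the fewest members.

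RPKM compares genes only as well as the gene length behind it. The length that the deposited RPKM implies lay within 10% of the GENCODE exon length for 27.7% of 15323 genes. The log2 ratio of a pair of genes is therefore also given with the GENCODE lengths where these move it by over 1.5-fold. Other orders between genes are on the deposited lengths alone. A gene's comparison with itself across libraries does not depend on length.

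The label of the tissue was checked against marker lists. The Dlx homeodomain factors of the subpallium were high. Dlx1 stood at 149 ± 7.03, Dlx2 at 70.9 ± 5.78, Dlx5 at 55.7 ± 0.564 and Dlx6 at 33.8 ± 1.89 RPKM. Gsx2, the homeodomain factor of LGE progenitors, was low at 6.38 RPKM, and Gsx1 stood at 1.78 RPKM. No Hox, En, Pax2 or Pax8 gene was among the genes analysed here, and of 8 thalamic and hypothalamic markers only Nkx2-2 was, at 0.501 RPKM. In bulk tissue, fewer cells of a type and less RNA per cell cannot be told apart, which holds for every marker level below.

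Isl1 (chr13:116298281-116309689, minus strand, GRCm38), the gene that the floxed alleles concern, had 63, 59.9, 68.0 and 58.0 RPKM in replicates 1 to 4. The libraries lay within a span of 1.17 of each other, with replicate 3 highest. At a mean of 62.2 ± 4.39 RPKM it was the 1096th gene of all. It was the highest of the 5 LIM homeobox genes that were listed, above Lhx6 (25.9 RPKM), a factor of interneurons from the medial ganglionic eminence, Lhx2 (13.0), Lhx8 (6.13) and Lhx5 (0.0376).

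The factors at the head of the transcription factor class include those of newborn neurons, of progenitors and of the striatal lineage. Sox4, a SoxC factor of differentiating neurons, was highest, with 301.4, 309, 336 and 311 RPKM in replicates 1 to 4, and was the 115th gene of all. The thyroid hormone receptor gene Thra stood at 205 ± 5.96 RPKM, and Meis2, a TALE homeodomain factor of striatal precursors and neurons, at 180 ± 7.25 RPKM. Sox11, the partner of Sox4, followed at 174 ± 3.89 RPKM. Next came Dlx1 and, at 140 ± 6.39 RPKM, Bcl11b, which encodes the zinc finger protein CTIP2 that striatal projection neurons need to mature. The progenitor factor Sox2 (123.3 ± 4.52 RPKM), the striatal forkhead factor Foxp1 (117 ± 4.14 RPKM) and Id4, an inhibitor of bHLH factors (112 ± 4.68 RPKM), were also among the first 10. Pbx3 came after them at 85.7 RPKM. Of the 10 neighbouring pairs in this order, 7 kept it in 4 of 4 libraries. The exceptions were Meis2 over Sox11, Dlx1 over Bcl11b and Foxp1 over Id4, each in 3 of 4 libraries.

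Within families, 1 paralog often stood well above the other. Meis2 exceeded Meis1 (19.1 RPKM) by 3.24 ± 0.076 on the log2 scale (SD, n = 4), and in 4 of 4 libraries, with 3.885 from the GENCODE lengths. Foxp1 exceeded Foxp2 (39.6 RPKM) by 1.56 ± 0.04, and Bcl11b exceeded Bcl11a (79.6 RPKM) by 0.82 ± 0.09, which becomes 1.69 with the GENCODE lengths. Dlx1 exceeded Dlx2 by 1.07 ± 0.071, a difference that shrinks to 0.32 with the GENCODE length. Sp9, a zinc finger factor of striatopallidal neurons, stood at 64.5 ± 3.63 RPKM, above its relative Sp8 (12.1 RPKM) by 2.42 ± 0.231, or by 1.60 with the GENCODE lengths. The retinoid receptor Rxrg stood at 81.8 ± 6.94 RPKM, above Rarb by 0.86 ± 0.064, though 34.1% of the Rarb exons overlap Top2b on the other strand and the strand setting of the counting is not given. Each of these pairs kept its order in 4 of 4 libraries.

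Every transcription factor list except the Hox genes had members of at least 10 RPKM. The POU list was led by Pou3f3 at 85.3 ± 2.41 RPKM, with Pou6f1 at 39.2 and the LGE factor Pou3f4 at 25.1 RPKM. Among other homeodomain genes Adnp stood at 74.3 RPKM, but 82.1% of its exons overlap the model Gm20716 on the same strand. Six3, a factor of striatopallidal neurons, stood at 35.1 ± 2.22 RPKM. The bHLH list (63 genes, 26 of at least 10 RPKM) was led after Id4 by Arnt2 at 73.7 and the sterol regulator Srebf2 at 55.4 RPKM. The bZIP list was led by the stress factor Atf4 (61.0 RPKM), Jund (52.2) and Xbp1 (30.4). Ebf1, a factor of striatonigral neurons, led the EBF, NFI and MEF2 list with 47.1, 48.0, 58.9 and 50.5 RPKM, and replicate 3 stood apart as highest. Among the mixed families Smad4 (45.0 RPKM), Smad5 (32.6) and Trp53 (30.4) were highest. The zinc finger list was led after the Bcl11 genes by Myt1l, a repressor of non-neuronal genes, at 58.6 ± 1.92 RPKM.

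**Figure D2:**
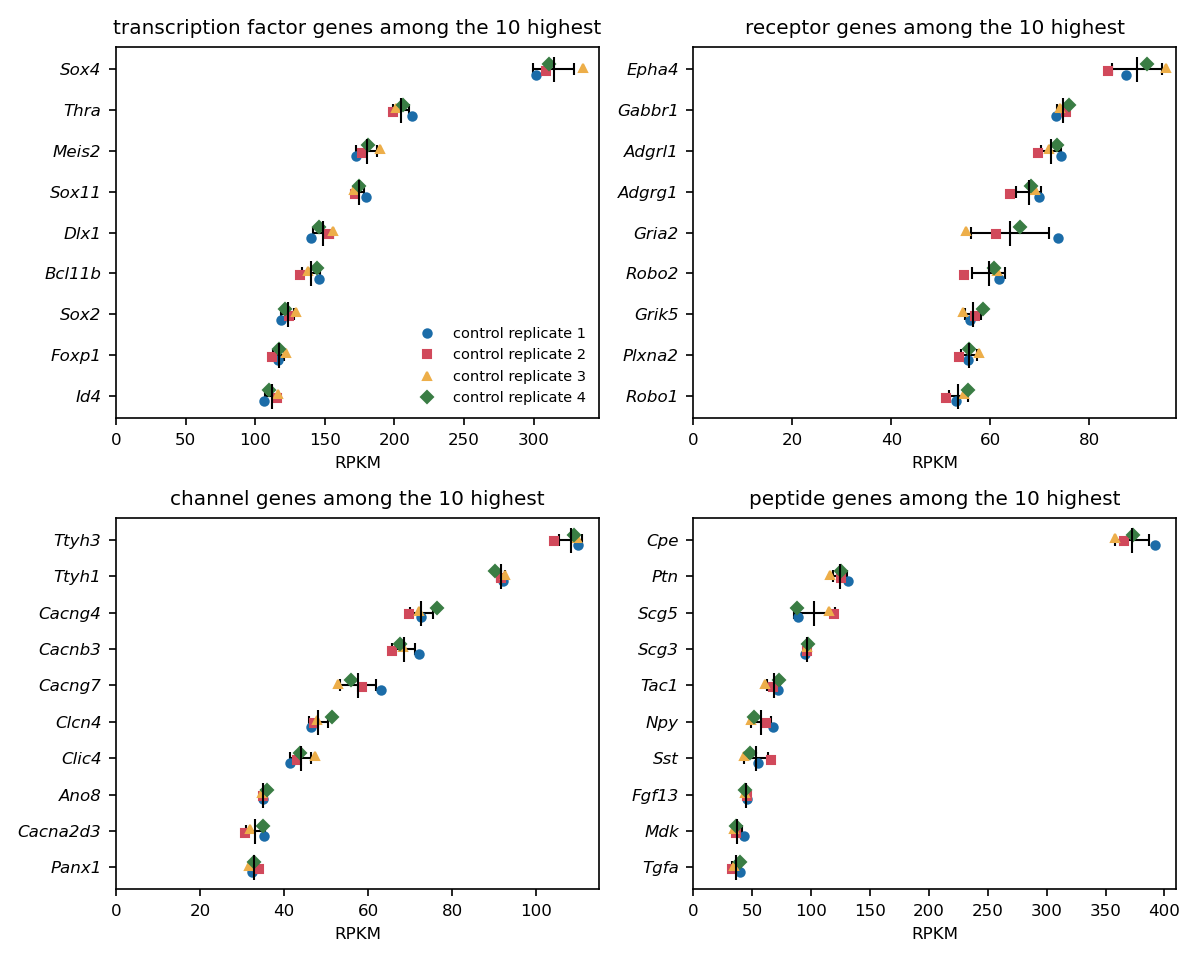
RPKM of genes among the 10 highest of each class in the 4 control libraries, without those not reported here (coloured symbols, linear axes that start at 0). Black ticks are means and bars are SDs over the 4 libraries; the gaps from Sox4 to Thra and from Cpe to Ptn exceed the spread of the libraries, while Scg5 and Scg3 overlap.

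The receptor class had no dominant member. Epha4, an Eph receptor tyrosine kinase that repels growing axons, led with 87.5, 83.9, 95.4 and 91.7 RPKM and was the 667th gene of all. The GABA-B subunit gene Gabbr1 stood at 74.7 ± 1.18 RPKM, and the latrophilin gene Adgrl1 at 72.3 ± 2.10 RPKM. Adgrg1, an adhesion receptor of progenitors, stood at 67.8 ± 2.61 RPKM. The AMPA receptor subunit gene Gria2 had 73.7, 61.1, 55.1 and 66.0 RPKM, a wider spread than its neighbours in rank. Robo2 (59.7 RPKM), the kainate receptor subunit gene Grik5 (56.5), Plxna2 (55.7) and Robo1 (53.6) followed, and Robo and plexin receptors guide axons. Only 4 of the 10 neighbouring pairs kept their order in 4 of 4 libraries.

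Dopamine receptors were unequal. Drd2 (chr9:49340627-49408177, plus strand, GRCm38) had 27.4, 23.5, 26.9 and 25.9 RPKM in replicates 1 to 4, and Drd1 (chr13:54051183-54055705, minus strand) had 9.60, 8.95, 7.30 and 8.95 RPKM. All Drd2 values lay above all Drd1 values. The log2 ratio of Drd1 over Drd2 was -1.58 ± 0.21 (SD, n = 4), a 2.99-fold higher RPKM for Drd2, and it was -0.88 with the GENCODE length of Drd2, which is longer. Drd4 (0.526 RPKM), Drd5 (0.168) and Drd3 (0.106) were below 1 RPKM.

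Other receptors of the adult striatum were present at different levels. Adora2a stood at 25.3 ± 1.14 RPKM, above Adora1 (11.6 ± 0.525 RPKM) by 1.12 ± 0.047 on the log2 scale, while Adora2b (0.354 RPKM) and Adora3 (0.057) were below 1 RPKM. The cannabinoid receptor gene Cnr1 stood at 20.2 ± 1.47 RPKM, and Cnr2 at 0.0357 RPKM. The nociceptin receptor gene Oprl1 led the opioid receptors at 18.8 ± 1.02 RPKM. The mu receptor gene Oprm1, a marker of striosomes, had 2.55, 1.95, 1.65 and 1.73 RPKM, with the delta receptor gene Oprd1 at 1.17 and the kappa receptor gene Oprk1 at 0.506 RPKM. Among muscarinic receptors, Chrm1 (9.61 ± 1.35 RPKM) exceeded Chrm4 (5.19 ± 0.744 RPKM) by 0.89 ± 0.095, but the GENCODE lengths bring this to -0.10. Both were lowest in replicate 2. Chrm2 stood at 1.92 RPKM, with Chrm3 (0.705) and Chrm5 (0.279) below 1 RPKM. The serotonin receptor list was low, with 3 of 11 genes at 1 RPKM or more, led by Htr3a (2.81, 3.01, 5.54 and 3.24 RPKM, highest in replicate 3) and Htr1b (3.61 RPKM).

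Fast transmitter receptors had mostly 1 or a few leading subunits. Of 18 ionotropic glutamate receptor genes, 16 had at least 1 RPKM, led by Gria2, Grik5 and the kainate subunit gene Grik2 (39.4 ± 2.98 RPKM). Gria2 exceeded Gria1 (32.6 RPKM) by 0.96 ± 0.149 on the log2 scale, which became -0.03 with the GENCODE lengths. The NMDA subunit gene Grin1 stood at 13.7 ± 0.576 RPKM. Among GABA-A subunits, the alpha-5 gene Gabra5 (22.1 RPKM) stood above the alpha-2 gene Gabra2 (10.7). Gabbr1 exceeded Gabbr2 (6.04 RPKM), its partner in the working GABA-B receptor, by 3.63 ± 0.121. The fetal glycine receptor subunit gene Glra2 stood at 13.0 ± 1.19 RPKM. Grm5 led the metabotropic glutamate receptors at 27.9 ± 1.26 RPKM, ahead of Grm3 (14.6) and Grm4 (9.45). The nicotinic subunit gene Chrnb2 stood at 15.7 RPKM, with 16.3% of its exons overlapping Adar on the other strand.

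Guidance receptors were mostly detected. Of 23 axon guidance receptor genes 20 had at least 1 RPKM, and of 13 Eph genes 11 did, with Ephb1 (50.7 ± 2.94 RPKM) and Epha7 (21.4) behind Epha4. Plxnd1, a plexin of striatonigral neurons, had 37.7, 27.7, 34.8 and 36.4 RPKM, lowest in replicate 2. The receptor tyrosine kinases were led by Ddr1, a collagen receptor, at 39.7 ± 3.96 RPKM, the BDNF receptor gene Ntrk2 at 24.95 and Ryk at 24.8 RPKM. Fzd3, a Wnt receptor of axon growth, stood at 22.3 ± 2.43, Notch1 at 16.4 ± 0.968 and Fzd2 at 13.98 RPKM. The activin receptor gene Acvr1b (31.1 RPKM) led the TGF-beta and BMP receptors. Cxcr4, the chemokine receptor of migrating interneurons, had 19.7, 22.98, 26.0 and 21.7 RPKM. Peptide receptors were mostly low, with 16 of 51 at 1 RPKM or more, led by the PACAP receptor gene Adcyap1r1 (29.1 ± 0.912 RPKM), the endothelin receptor gene Ednrb (24.9) and the natriuretic peptide receptor gene Npr2 (11.95).

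The channel class was led by genes outside the classical pore families. Ttyh3, of the tweety family, had 110, 104, 110 and 109 RPKM and was the only channel gene above 100 RPKM, and its relative Ttyh1 stood at 91.6 ± 0.997 RPKM. Cacng4 (72.7 ± 2.81 RPKM) and Cacng7 (57.6 ± 4.31) encode auxiliary subunits of AMPA receptors, and Cacnb3 (68.4 ± 2.69) encodes a beta subunit of calcium channels. The length behind the Cacng4 value is 984 bases against 3575 in GENCODE, so its rank is uncertain. Clcn4 (48.1 RPKM), Clic4 (43.9), Ano8 (35.1), Cacna2d3 (33.2) and Panx1 (32.7) completed the first 10. Of the 10 neighbouring pairs, 7 kept their order in 4 of 4 libraries.

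Among the pore subunits of voltage-gated potassium channels, Kcnd2 stood at 13.9 and Kcnh4 at 12.1 RPKM. Of 13 inward rectifier genes 6 had at least 1 RPKM, led by the glial channel gene Kcnj10 at 8.05 ± 0.458 RPKM. The two-pore channel gene Kcnk2 stood at 20.3 RPKM and the BK auxiliary subunit gene Kcnmb4 at 25.7 RPKM. The sodium channel genes were led by the auxiliary subunit gene Scn3b (30.7 ± 0.886 RPKM) and by Scn3a, the embryonic pore subunit, at 16.04 ± 1.204 RPKM. Scn3a exceeded Scn2a, a pore subunit of maturing neurons, by 1.55 ± 0.215 on the log2 scale and in 4 of 4 libraries. Of the pacemaker channel genes Hcn3 stood at 15.9, Hcn4 at 9.62 and Hcn2 at 6.24 RPKM, and the acid-sensing channel gene Asic1 stood at 26.8 RPKM.

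In the peptide class, 3 granin and processing genes stood above every neuropeptide gene, and the other 8 lay below Tac1, Npy and Sst. Cpe, a carboxypeptidase that trims prohormones, was highest with 392, 366, 358 and 374 RPKM and was the 92nd gene of all. Scg5, a chaperone of the convertase PC2, had 88.6, 120, 115 and 87.6 RPKM, with replicates 2 and 3 above replicates 1 and 4. Scg3 stood at 96.1 ± 1.18 RPKM. Of the 11 granin and processing genes, 10 had at least 1 RPKM, and Pcsk1, the convertase PC1/3, was the exception at 0.884 ± 0.0899 RPKM. Its counterpart Pcsk2 stood at 15.8 ± 0.999 RPKM. The lower granin genes were Chga (27.4 RPKM), Chgb (20.3), Scg2 (15.4) and Vgf (9.80).

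Tac1 (chr6:7554879-7565834, plus strand, GRCm38), the precursor of substance P, had 71.9, 67.2, 61.1 and 72.5 RPKM, the highest mean of a neuropeptide gene on the deposited lengths. Penk (chr4:4133531-4138819, minus strand), the enkephalin precursor, had 25.2, 27.4, 26.1 and 23.6 RPKM. Every Tac1 value lay above every Penk value, and the log2 ratio of Penk over Tac1 was -1.41 ± 0.185 (SD, n = 4). With the GENCODE exon length of Tac1, 3399 bases in place of 1225, that ratio becomes 0.02, so the order of the 2 genes rests on the length. Pdyn, the dynorphin precursor, stood at 7.66 ± 0.0488 RPKM with a log2 ratio to Tac1 of -3.15, or -1.86 with the GENCODE lengths. Pnoc stood at 1.63 and Pomc at 1.09 RPKM.

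The interneuron peptides were the next highest. Npy had 67.6, 61.5, 49.1 and 51.7 RPKM, and Sst had 55.2, 66.3, 43.1 and 48.4 RPKM, with replicates 1 and 2 above replicates 3 and 4 for both. Npy exceeded Sst by 0.12 ± 0.171 in log2, in 3 of 4 libraries, so the order of these genes was within the spread of the libraries. The log2 ratio to Tac1 was -0.26 ± 0.185 for Npy and -0.37 ± 0.249 for Sst, and with the GENCODE lengths it becomes 1.21 and 0.83, above Tac1. Apln (9.50 RPKM), Cbln1 (8.61), Nts (5.73), Nmb (3.37, with exons that overlap Sec11a) and Cort (2.60) followed. Of the 32 listed genes of this list 16 had at least 1 RPKM, and Cck stood at 0.266 RPKM.

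Secreted growth factors were led by pleiotrophin, Ptn, with 131, 125, 116 and 125 RPKM. Fgf13, an intracellular relative of the fibroblast growth factors, stood at 44.5 ± 0.752, the pleiotrophin relative Mdk at 37.4 ± 3.62 and Tgfa at 36.5 ± 3.55 RPKM. Vegfb (34.6 RPKM), Cxcl14 (26.9), Vegfa (23.03) and Wnt7a (19.9) followed, and Gdf1 (15.9) shares all of its exons with Cers1 and cannot be read apart from it. Of 72 growth factor genes 37 had at least 1 RPKM.

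The cyclic AMP response element, TGACGTCA, is a known motif of some peptide gene promoters, and it was looked for in the RefSeq promoters (GRCm38.p6, from 250 bases before to 50 after each start). The motif reads the same on both strands. Promoters were found for 11968 of the 15705 genes (76.2%), of which 356 (2.97%) hold it. Among 36 peptide, granin and processing genes with a promoter, of 48 listed, it stands in 4 (11.1%), namely Sst, Chgb, Scg2 and Pcsk1. These are shown because they are all of the group's genes with the motif, and their levels are 53.2, 20.3, 15.4 and 0.884 RPKM. The share rests on the granin and processing genes (3 of 9), while 1 of 24 other neuropeptide genes holds the motif. With the growth factor genes (0 of 52), the whole peptide class has 4 of 88 (4.55%), nearer the share of all genes. Each line gives the 100 bases before the start, 5′ to 3′ on the strand of the gene, with the motif in capitals.
Sst: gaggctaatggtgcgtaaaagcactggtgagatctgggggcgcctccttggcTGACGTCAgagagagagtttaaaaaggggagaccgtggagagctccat
Chgb: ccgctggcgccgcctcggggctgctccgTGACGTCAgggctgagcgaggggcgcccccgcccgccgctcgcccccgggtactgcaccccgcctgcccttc
Scg2: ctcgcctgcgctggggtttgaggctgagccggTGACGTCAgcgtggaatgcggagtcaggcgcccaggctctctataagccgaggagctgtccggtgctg
Pcsk1: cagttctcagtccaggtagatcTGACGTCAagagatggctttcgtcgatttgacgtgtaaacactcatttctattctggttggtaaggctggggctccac
They lie at chr16:23890845-23890944 (minus strand), chr2:132781542-132781641 (plus), chr1:79440027-79440126 (minus) and chr13:75089757-75089856 (plus). The motif begins 48, 72, 68 and 78 bases before the start, in the same order. A match is a description of these letters and says nothing about a factor bound there. Over all genes, the median number of CG dinucleotides per promoter was 8 below 1 RPKM, 14 from 1 to 3 RPKM, 17 from 3 to 10 RPKM and 19 from 10 to 300 RPKM.

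Marker sums of the striatal lineage and its precursors were even across the libraries. Abundant members set these sums, and some low members, such as Gpr52 and Gpr6, spanned 2.26 and 1.91 with 0.1 RPKM added. The 11 striatonigral markers summed to 276 to 295 RPKM and the 10 striatopallidal markers to 232 to 244 RPKM, and these sums spanned 1.07 and 1.05 between libraries. All 11 striatonigral markers had at least 1 RPKM, and 9 of the 10 striatopallidal ones did, with Upb1 at 0.18 RPKM. The lowest in each list that passed 1 RPKM were Eya1 (1.17) and Gpr52 (1.12, with 1.75, 0.716, 0.945 and 1.07 RPKM in the libraries). The 18 markers shared by both kinds summed to 1016 to 1092 RPKM, led by Meis2, Bcl11b and Foxp1. Of these 18, 12 were lowest in replicate 2. For such counts here and below, the share of all genes is given only for those lowest in replicate 3. A shift of a whole library can therefore not be told apart from a trait of a list. The GABA-synthesising enzyme genes Gad1 (71.4 ± 3.87 RPKM) and Gad2 (67.0 ± 2.48) had a log2 ratio of 0.09 ± 0.11, which becomes -0.79 with the GENCODE lengths, so their order rests on the length. Ppp1r1b, which encodes the dopamine-regulated protein DARPP-32, stood at 39.2 ± 2.92 RPKM, the phosphodiesterase gene Pde10a at 39.9 ± 3.68 and Rgs9, a marker of mature striatum, at 5.37 ± 0.328 RPKM.

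The 5 matrix markers summed to 243 to 259 RPKM and the 5 striosome markers to 34.9 to 37.2 RPKM. Id4 and Epha4 made up most of the matrix sum, and Calb1 stood at 26.1 RPKM. Rasgrp2 (13.9 RPKM), which is also in the shared list, and Gda (6.45) lay below the first striosome gene. The 5 striosome genes were led by Bach2 at 14.8 ± 0.181 RPKM, Sema5b at 12.3 and Nr4a1 at 4.11 RPKM. The 8 dorsal LGE and olfactory interneuron markers summed to 90.3 to 94.5 RPKM. Tshz1, a zinc finger homeodomain factor of that lineage, led them at 24.5 ± 0.813 RPKM, followed by Vax1 (18.1), Etv1 (13.6) and Sp8 (12.1). Pax6 stood at 5.97 RPKM, and Th, the dopamine-synthesising enzyme gene, at 2.45 RPKM.

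Progenitor and division markers were clearly present. Below Fabp7, the filament gene Vim stood at 197 ± 3.31, Slc1a3 at 82.5 ± 5.34, Nes at 40.3 ± 3.09 and the Notch target Hes5 at 25.1 RPKM. The 20 proliferation genes summed to 460 to 521 RPKM. The replication clamp gene Pcna stood at 86.0 ± 8.46, the topoisomerase gene Top2a at 61.1 ± 5.03, Ube2c at 47.8 and Mki67 at 28.6 RPKM. Of these 20 genes, 18 were highest in replicate 3 and 14 lowest in replicate 2, although the sums spanned only 1.13. The shares of all genes at these ends are not given. A shift of the whole library can therefore not be told apart from a trait of this list. Of 10 newborn neuron markers, 9 had at least 10 RPKM and 7 at least 100 RPKM. Among them Tubb3 stood at 1051 ± 60.6, Nrep at 537, Stmn2 at 473 and Dcx at 171 RPKM. Rbfox3 was the lowest of the list at 8.76 RPKM.

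Glia and vessels were detected at lower levels. Olig1 (19.2 RPKM) and Olig2 (14.4) exceeded Sox10 (1.80) and Pdgfra (3.57) in the oligodendrocyte lineage, and Mbp, of myelin, stood at 4.47 RPKM. In the astrocyte list 6 of 8 genes had at least 1 RPKM and 4 had at least 10 RPKM. Aldoc (55.7 RPKM), Aldh1l1 (35.7) and Sox9 (30.7), which radial glia also express, led it. Only S100b (0.349) and Gfap (0.272) lay below 1 RPKM. All 12 microglial genes had at least 1 RPKM, with Tmem119 lowest at 1.02 RPKM. The endothelial genes were led by the tight junction gene Cldn5 at 30.8 ± 2.54 RPKM and mural genes by Rgs5 at 17.4 RPKM. The ciliary regulator Foxj1, of ependymal cells, stood at 8.04 RPKM. Meningeal collagen genes were near the floor, with Col1a2 at 1.19 and Col1a1 at 0.211 RPKM, and Dcn stood at 0.0196 RPKM. Of 14 immediate early genes 12 had at least 1 RPKM and 3 had at least 10 RPKM, with a median of 4.1 RPKM. Jun was highest at 25.5 RPKM, while Fos stood at 1.44 and Arc at 2.93 RPKM.

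Among interneuron and neighbouring markers, the cholinergic and septal sums each spanned 1.63. Those of the medial and caudal ganglionic eminence lists spanned 1.17 and 1.09. Nkx2-1, the factor of the medial ganglionic eminence, stood at 11.4 ± 1.32 RPKM. Of the caudal ganglionic eminence markers, Reln stood at 14.9, Prox1 at 6.52 and Nr2f2 at 3.83 RPKM, the last with 3.05, 5.52, 2.96 and 3.81 RPKM. Cholinergic markers were low, with Lhx8 at 6.13 and the acetyltransferase gene Chat at 0.213 RPKM. Their 9 genes summed to 9.39, 15.2, 10.8 and 9.33 RPKM, and 7 of the 9 were highest in replicate 2. The 5 septal Zic genes summed to 8.88, 14.4, 9.06 and 10.5 RPKM, and 4 of the 5 were highest in replicate 2. Both sums were highest in replicate 2, but only 3 of the 9 cholinergic and 3 of the 5 septal genes had at least 1 RPKM. The share of all genes highest in replicate 2 is not given. A shift of that whole library can therefore not be told apart from a trait of these lists.

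Of 27 marker lists with a listed member, 19 had sums that spanned less than 1.2 and only 3 spanned 2 or more. In the first of these 3, the 12 pallial glutamatergic markers summed to 17.1, 23.2, 2.34 and 19.0 RPKM, and 11 of the 12 were lowest in replicate 3. Of all genes of at least 1 RPKM, 27.0% were lowest in that library. Neurod2, a bHLH factor of cortical neurons, had 3.06, 4.19, 0.235 and 3.01 RPKM. Neurod6 had 3.37, 6.05, 0.438 and 4.66 RPKM, Tbr1 of deep-layer neurons 2.501, 4.31, 0.361 and 3.07 RPKM, and Eomes of cortical intermediate progenitors 2.18, 0.937, 0.0884 and 1.83 RPKM. The vesicular glutamate transporter genes Slc17a6 and Slc17a7 had means of 1.05 and 0.119 RPKM. In the second, the choroid plexus genes summed to 124, 3.44, 8.37 and 7.06 RPKM. The transthyretin gene Ttr, the main product of that epithelium, accounted for nearly all of it at 120, 0.771, 4.74 and 3.99 RPKM. Folr1, at 0.479, 0.0291, 0.0292 and 0.0592 RPKM, was also highest in replicate 1, and the klotho gene Kl stayed between 0.146 and 0.209 RPKM. The third, the sex-linked genes, is described with the most variable genes. Red cell genes came next among abundant lists, at 393, 605, 619 and 466 RPKM, mostly from the globin gene Hbb-bs (214, 368, 365 and 264 RPKM). The part of any of these cell types in other results was not tested.

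**Figure D3:**
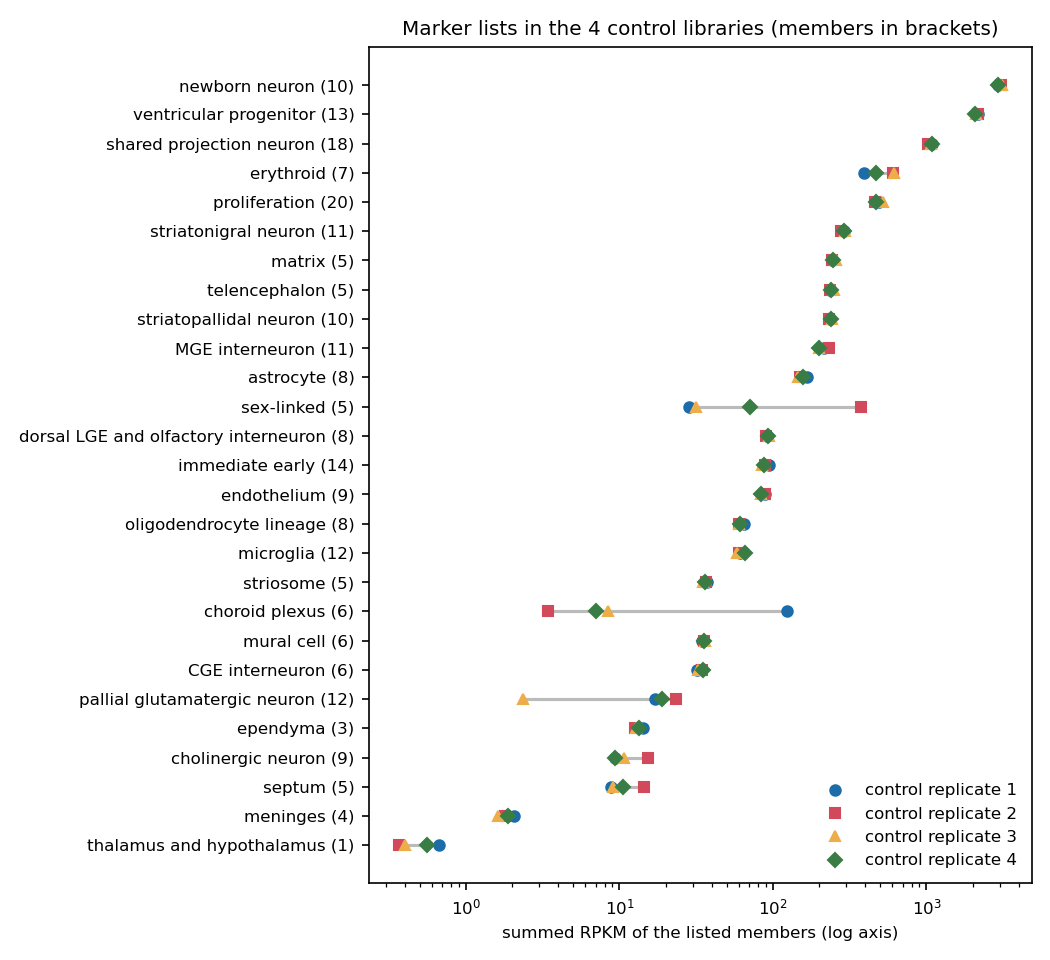
Summed RPKM (log axis) of 27 marker lists in each of the 4 control libraries (coloured symbols), with the number of listed members in brackets and grey lines from the lowest to the highest library. Most lists form tight clusters, while the sex-linked, choroid plexus and pallial lists spread over 13.1, 36.0 and 9.93 times.

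The spread of a gene between the libraries was taken as the SD of log2(RPKM + 0.1) among the 12441 genes of at least 1 RPKM. Its median was 0.08, its interquartile range 0.05 to 0.12, and the median gene had a CV of 5.4% and a highest library 1.13 times the lowest. A ratio of highest to lowest of at least 2, with 0.1 RPKM added to each value, was found for 149 genes (1.2%), and of at least 4 for 36 genes (0.289%). Spread fell with level at first. The median SD was 0.15 from 1 to 3 RPKM and 0.05 from 30 to 100 RPKM, and it was 0.07 in the 125 genes of 300 RPKM or more. From 1 to 3 RPKM 99 of 1821 genes (5.44%) spanned 2-fold, and from 10 to 30 RPKM 10 of 4311 (0.232%) did.

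The kind of RNA mattered for the count. Of 31 snoRNA, snRNA and related genes 21 (67.7%) spanned 2-fold, as did 13 of 42 miRNA genes (31.0%), 11 of 74 pseudogenes (14.9%) and 77 of 11757 protein-coding genes (0.655%). The median length of the first 2 kinds was 118 and 93 bases. By class, 8 transcription factor genes (2.43% of those of at least 1 RPKM), 3 receptor genes (1.33%), 0 channel genes and 2 peptide genes (2.94%) spanned 2-fold, beside the 1.2% of all genes. The 8 factors were Neurod2, Neurod6, Neurog2, Tbr1, Eomes, Zic2, Tcf7l2 and Hopx, and the first 5 of these are in the pallial list. Tcf7l2, a Wnt effector that is strong in the thalamus, had 1.19, 3.58, 1.36 and 1.89 RPKM, and the semaphorin receptor gene Nrp2 had 0.996, 2.95, 0.92 and 1.51 RPKM. Both were highest in replicate 2. The other receptors were Gpr52 and Bmpr1b and the peptide genes were Gal and Cbln2. Without replicate 1, 2, 3 or 4 the count of 149 became 87, 102, 87 or 142.

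**Figure D4:**
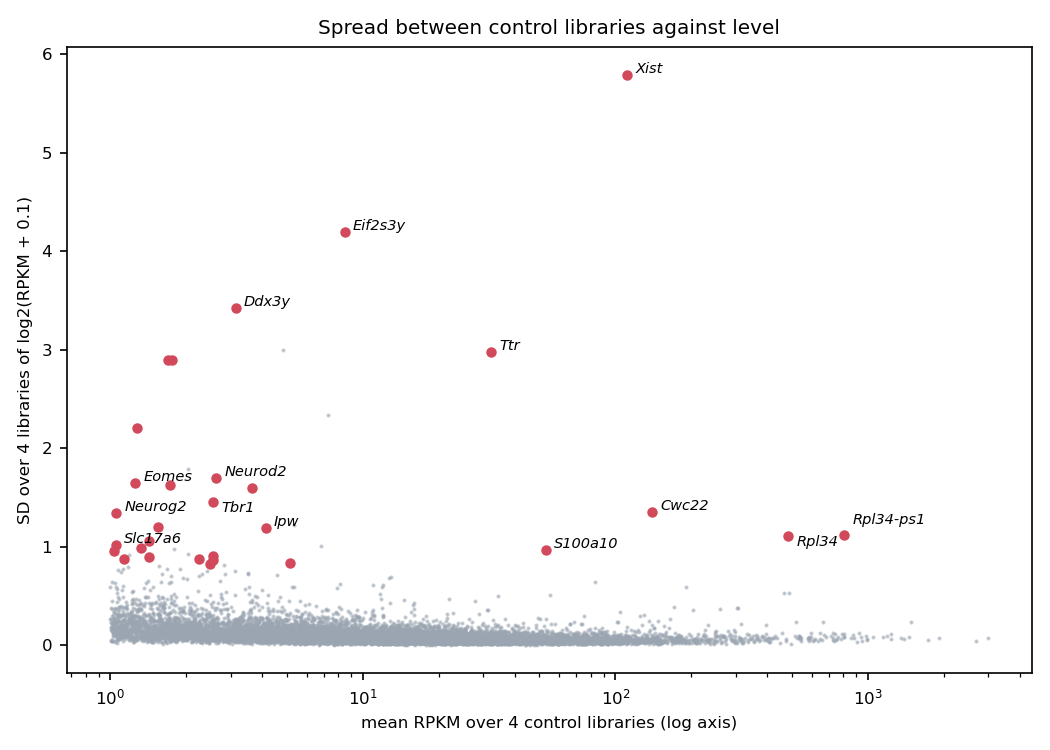
SD of log2(RPKM + 0.1) over the 4 control libraries against mean RPKM (log axis) for genes with a mean of at least 1 RPKM (grey). The 30 most variable genes with a proper symbol are red; Xist, the Y-linked genes and Ttr lie above the other red points, and Cwc22, Rpl34 and Rpl34-ps1 combine a high level with a wide spread.

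The 3 most variable genes, Xist, Eif2s3y and Ddx3y, lie on the sex chromosomes. Xist, the RNA that silences an X chromosome in female cells, had 0.0494, 374, 0.103 and 71.3 RPKM in replicates 1 to 4. The Y-linked genes ran the other way. Eif2s3y had 16.1, 0, 17.8 and 0.0235 RPKM and Ddx3y 5.98, 0, 6.53 and 0.00897 RPKM. Uty and Kdm5d had 3.40 and 3.06 RPKM in replicate 1, 3.57 and 3.66 in replicate 3, and at most 0.0238 in replicates 2 and 4. Replicates 1 and 3 thus carried Y-linked transcripts and almost no Xist, and replicates 2 and 4 carried Xist and almost no Y-linked transcripts. The Xist level of replicate 2 was 5.24 times that of replicate 4.

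Other genes of the 30 most variable fall into several patterns. Neurod2, Eomes, Neurod6, Tbr1, Neurog2 and Slc17a6 share the low value in replicate 3 described for the pallial list. Outside the 30, since they have clone names, and named after their values were seen, AA388235 had 18.03, 0.307, 0.0424 and 0.926 RPKM and AI506816 had 26.2, 1.06, 0.694 and 1.17 RPKM. Both were high in replicate 1, and AA388235 had a wider spread than Ttr, Uty and Kdm5d. Serpina3n, an acute-phase gene of reactive astrocytes, had 1.84, 1.24, 0.354 and 2.28 RPKM. Cwc22 (chr2:77881159-77946375, minus strand, GRCm38), a splicing factor gene, had 52.7, 259, 208 and 40.7 RPKM. Its libraries fell into replicates 2 and 3, high, and replicates 1 and 4, low. Ipw, an imprinted non-coding RNA, had 2.30, 1.56, 10.5 and 2.16 RPKM and stood out in replicate 3. Hist1h4d had 0.344, 2.00, 0.669 and 1.13 RPKM, and Tmsb15b1 had 2.40, 3.45, 9.53 and 5.21 RPKM. Of the 30, 9 are small RNA genes (Mir705, Rmrp, Snora3, Snora44, Rnu12, Mir6973b, Mir677, Snord33 and Snora28).

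Rpl34 (chr3:130726831-130730398, minus strand), a ribosomal protein gene, had 619, 835, 146 and 333 RPKM, and its processed copy Rpl34-ps1 on chromosome 6 had 1030, 1394, 239 and 551 RPKM. The log2 ratio of the copy over the gene was 0.73 ± 0.01 in the libraries, or 2.89 with the GENCODE lengths, and it differed little between libraries, so the values of the pair move as 1 and the reads of these genes may not be separable. A similar case chosen after its values were seen is Rpl26, at 268, 609, 553 and 431 RPKM, with the processed copy Gm15772 at 280, 636, 578 and 450 RPKM. Also seen after the fact among abundant genes were Cox7b, a subunit of cytochrome oxidase, at 227, 269, 107 and 160 RPKM, and Pop4, of the RNase P complex, at 43.8, 59.3, 81.8 and 36.3 RPKM. Npm3-ps1, another processed copy, had 1.92, 1.08, 0.375 and 1.14 RPKM.

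**Figure D5:**
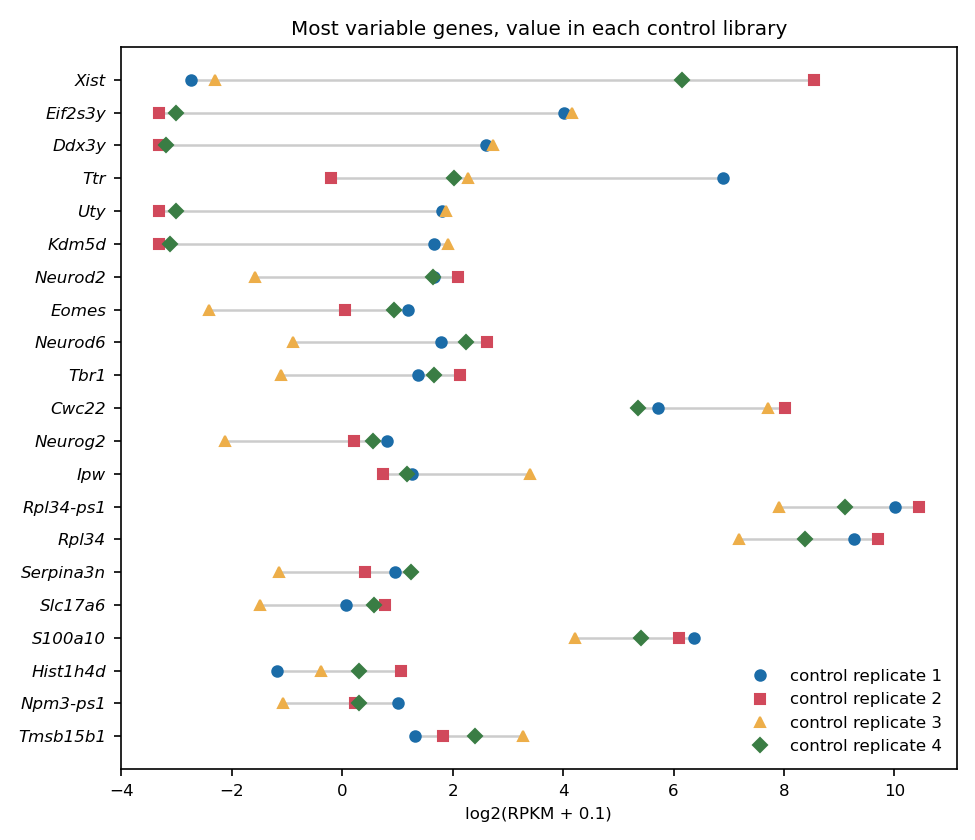
Level of the 21 most variable genes that are not small RNA genes, in each of the 4 control libraries on the scale of log2(RPKM + 0.1), ordered by SD with the widest at the top. Replicates 1 and 3 sit opposite replicates 2 and 4 for Xist and the Y-linked genes, and replicate 3 is lowest for the pallial genes, Rpl34, Rpl34-ps1 and S100a10.

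S100a10, a calcium-binding protein gene, had 82.9, 68.4, 18.4 and 42.2 RPKM and lies on chromosome 3, as Neurog2 and Rpl34 do. On that chromosome 20 of 581 genes of at least 1 RPKM (3.44%) spanned 2-fold, against 1.2% of all genes. It was looked at more closely because of that count. Of the 20, 12 (60.0%) were lowest in replicate 3, against 45 of 129 (34.9%) elsewhere. In 10 of the 12, replicate 4 was the next lowest, as it was in 22 of those 45. The 12 lie between 88782943 and 157544349 on chromosome 3 (GRCm38) and include Capza1, which encodes an actin-capping protein, at 19.3, 16.5, 9.22 and 13.2 RPKM. Dapp1 had 5.36, 3.75, 2.25 and 3.55 RPKM, Riiad1 7.98, 5.80, 2.94 and 4.64 RPKM, and Bmpr1b, a BMP receptor gene, 2.33, 2.14, 0.809 and 1.66 RPKM. Within that span 133 of 347 genes of at least 1 RPKM (38.3%) had their lowest value in replicate 3, against 27.0% of all genes. The span was set by those 12 genes, which are among the 133, so this share is not separate evidence of a regional pattern.

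Across the 149 genes the libraries did not contribute alike. Replicate 2 was highest for 57, replicate 1 for 44, replicate 3 for 39 and replicate 4 for 9. Replicate 3 was lowest for 57, replicate 1 for 50, replicate 2 for 31 and replicate 4 for 11. Replicate 4, with the smallest counts, is the library with the largest weight in the removed factor, and whether that factor lowered its counts was not tested.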

How the data were processed

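Poly(A) RNA of E18.5 LGE was sequenced as single reads of 85 bp from directional libraries, per the labels' protocols. The submitters' processing notes name STAR, featureCounts and a count-model package with the build mm10. Neither a version nor a counting option is stated there or in the labels. Values named RPKM were deposited by the authors and are scaled to gene length and library total, per the file headers. The deposited columns named as raw hold a score, since their upper quartiles lie between 1624 and 1633 in the control libraries. Dividing them by the library total and a gene length gives the RPKM. The authors' group means, fold changes and p-values were not used. In the natural log of the 8 libraries 1 direction has a singular value of 0.000241, against 0.0433 for the next smallest (5711 genes), the trace of a removed factor read from the values. Depth and counting error cannot be given.

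Groups and replicate numbers come from the sample titles. Means, SDs, log2(RPKM + 0.1), ranks and ratios were computed with Python 3.11.15, numpy 2.4.6 and pandas 2.3.3 and drawn with matplotlib 3.10.9. No p-value was computed. Dixon's criterion served only to pick libraries that stand apart, and the script for the spread ranking was checked on simulated data. Members and lists were chosen with earlier results of these data known. The 82 lists hold 1262 genes. Named are the 20 highest genes; the 10 highest of each class and 3 highest of each list; marker lists of up to 14 genes whole and otherwise their 4 highest; the 30 most variable genes of at least 1 RPKM with a proper symbol; peptide, dopamine, adenosine, opioid, muscarinic and cannabinoid genes; and Isl1. Others were named after their values were seen, including Rgs9, Scn2a and the genes given for a chromosome, an overlap or a pair. A number of genes chosen this way are left out of the text, though class and list counts and sums include them. Positions and exon lengths are from GENCODE M21, in which 15324 genes have 1 position. The alternatives were leaving out each library, other scalings, pseudocounts, filters and gene lengths.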

Additional observations from a re-analysis of the deposited data

Results flagged for a closer look

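In 6 of the 58 sums and genes screened, 1 control library stood apart from the other 3, with a gap to the nearest of them above Dixon's 95% critical share of the whole range. Chance gives this for about 1 in 20 groups of 4, a share that does not apply to the 30 of these items that are genes chosen for their wide spread. Of the 6, Ttr, Mir705, Ipw and Mir677 are such genes, and the others are the choroid plexus and sex-linked sums. All 5 members of the sex-linked list are also among the 30, and Ttr sets the choroid plexus sum. The share of 1 in 20 therefore does not apply to these sums either. The choroid plexus sum and Ttr are 1 observation. The choroid plexus sum was 123.8 RPKM in replicate 1, of which Ttr made up 119.5 RPKM. The sex-linked sum was 374.0 RPKM in replicate 2, and it adds Xist to Y-linked genes that ran the other way. Mir705 had 4.11 RPKM in replicate 1, against at most 0.508 RPKM in the others. Ipw had 10.45 RPKM and Mir677 had 4.735 RPKM in replicate 3. The pallial sum was not among them, since replicates 1, 2 and 4 spread too widely.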

How the results depend on the processing

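Without 1 library at a time the count of genes spanning 2-fold ran from 87 to 142, against 149, and 15 to 28 of the 30 most variable genes remained. The count was 75 with a pseudocount of 1, 31 for means of at least 5 RPKM and 659 with no filter, and 8 and 16 of the 30 remained under these last 2. It was 115 without small RNA genes, which was chosen after seeing the data. Without replicate 3, 2 in place of 3 marker sums spanned 2-fold. Rescaled to a library sum of 1000000, the medians were 14 for transcription factors, 5.59 for receptors, 7.90 for channels and 3.40 for peptides. Restricted to members of at least 1 RPKM they were 8.84, 6.92, 5.91 and 6.01. With GENCODE lengths the log2 ratio of Drd1 over Drd2 was -0.88 and that of Penk over Tac1 turned to 0.0222. With those lengths 8, 7, 5 and 8 of the 10 highest factors, receptors, channels and peptides remained. The gene lengths and the removed factor limit these values. No paired analysis was possible because only the control group enters and no value comes from a test.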
